A study of Homo sapiens with 16 samples.

Results

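The regions described here are distal loci at which a κB motif, the DNA element of NFκB, lies beside a TRE, the element of AP-1. They were chosen from the GRCh38 sequence of chromosomes 1 to 22 alone, with no measurement used. The κB motif was a 10-base match to the consensus of a pair of G, a pair of purines, any base, A or T, a pair of pyrimidines and a pair of C, and the TRE was a match to TGACTCA or TGAGTCA, on either strand. A locus was kept where the edges of both motifs lay within 50 bp of each other and its midpoint lay over 1 kb from every protein-coding transcription start site (TSS). Pairs with midpoints within 200 bp of each other were joined. This gave 7259 paired loci among 668891 distal motif loci, the others being 320042 loci with a κB motif and no TRE within 500 bp (κB-only loci) and 341590 with a TRE and no κB motif within 500 bp (TRE-only loci).

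Binding of p65, the RELA subunit of NFκB, had been mapped by ChIP-Seq in HT29 and SW480 cells, both established human colorectal adenocarcinoma lines. Of each line there were cells made to express exogenous ERβ, the second estrogen receptor, and mock control cells. Each of these 4 conditions had 3 ChIP libraries beside 1 input. All cells had received 30 ng/ml of TNFα for 30 min and were crosslinked with DSG and formaldehyde. No library of cells without TNFα was analysed here, so none of the values below is a response to TNFα, and the labels name no more than 1 ERβ line for each parent line. The study's methods call the 3 libraries of a condition biological replicates, and do not say whether they were separate cultures.

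In resting cells NFκB dimers are held in the cytoplasm by IκB proteins. TNFα leads to loss of these inhibitors, and p65 then enters the nucleus and binds κB motifs at promoters and enhancers of inflammatory and survival genes. AP-1, a dimer of JUN, FOS or ATF family members, is activated by the MAP kinase branches of the same signalling, binds the TRE mostly at distal enhancers, and is known to help open chromatin there. Only p65 was measured here, so nothing below says whether AP-1 was bound at any of these loci.

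The sequences below, from GRCh38 on the forward strand, show the arrangement at loci that the results turn on, with the κB motif and the TRE in capitals and 15 bases to either side. Each is named by the nearest protein-coding gene, which is a label of position and was not shown to be regulated. The words intron and exon refer to any annotated gene at that place, which need not be the named one. The first set holds 6 of the loci with the highest p65 signal, and EGFR from a list of genes, with motifs set 2 to 47 bp apart in either order.
BCAR1 (chr16:75245306-75245354): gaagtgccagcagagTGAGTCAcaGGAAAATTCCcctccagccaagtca
CRTAC1 (chr10:97882700-97882761): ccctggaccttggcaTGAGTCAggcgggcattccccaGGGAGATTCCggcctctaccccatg
QPCT (chr2:37390605-37390683): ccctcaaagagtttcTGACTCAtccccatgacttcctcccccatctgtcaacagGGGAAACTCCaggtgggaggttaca
LAMC1 (chr1:183139740-183139812): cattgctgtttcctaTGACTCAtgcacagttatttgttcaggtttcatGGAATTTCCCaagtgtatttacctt
IRAK2 (chr3:10192225-10192318): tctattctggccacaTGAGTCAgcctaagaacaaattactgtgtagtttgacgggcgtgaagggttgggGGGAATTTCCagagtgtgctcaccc
STK11 (chr19:1184005-1184075): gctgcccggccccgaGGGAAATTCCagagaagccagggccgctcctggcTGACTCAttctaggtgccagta
EGFR (chr7:55065296-55065352): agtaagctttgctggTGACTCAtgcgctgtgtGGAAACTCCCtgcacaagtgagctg
The next loci were among those that differed most between ERβ and mock cells of SW480.
SPOPL (chr2:138615421-138615508): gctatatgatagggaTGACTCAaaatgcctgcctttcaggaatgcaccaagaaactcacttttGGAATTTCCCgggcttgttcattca
GPR55 (chr2:230974353-230974401): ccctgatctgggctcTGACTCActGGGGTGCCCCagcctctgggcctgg
The following had the largest differences between the lines towards SW480 mock cells.
HS6ST1 (chr2:128520875-128520937): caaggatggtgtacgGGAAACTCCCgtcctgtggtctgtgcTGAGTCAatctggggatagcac
HMX1 (chr4:8847009-8847105): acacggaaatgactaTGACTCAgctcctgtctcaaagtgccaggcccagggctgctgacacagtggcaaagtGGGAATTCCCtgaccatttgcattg
The last set belongs to sequences that recur in the genome. SMIM41 and SYK belong to one group of near-identical loci and CDH18 and CFAP91 to another, both often occupied, while SLC5A9 stands for a group with no occupied locus.
SMIM41 (chr12:52116702-52116752): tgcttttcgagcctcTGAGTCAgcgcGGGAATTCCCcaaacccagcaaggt
SYK (chr9:90755908-90755958): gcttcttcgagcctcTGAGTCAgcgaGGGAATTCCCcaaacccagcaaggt
CDH18 (chr5:18746446-18746504): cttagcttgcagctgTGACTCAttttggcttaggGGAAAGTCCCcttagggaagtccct
CFAP91 (chr3:119700718-119700776): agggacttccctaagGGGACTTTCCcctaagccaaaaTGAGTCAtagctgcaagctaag
SLC5A9 (chr1:48214363-48214414): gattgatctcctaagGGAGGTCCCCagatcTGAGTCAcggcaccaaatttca

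All values are mean tag densities over the 200 bp centred between the motifs, in a track that the authors had scaled to one common total of tags per library, called signal below. The scaled tracks do not give the depth behind a value. Over coding exons of ESR2, the gene of ERβ, relative to the rest of that gene, the ratio of signal was 4.48 to 8.1 in HT29 ERβ against 1.09 to 1.37 in HT29 mock ChIP libraries, and 2.59 to 3.22 in SW480 ERβ against 1.35 to 1.6 in SW480 mock ChIP libraries, and in neither line did the ERβ and mock values overlap. Replicate 1 of both HT29 conditions stood apart from the other two, with the top 1% of paired loci starting at a signal of 6.13 in HT29 mock replicate 1 against 3.4 and 3.46 in replicates 2 and 3, and 5.44 in HT29 ERβ replicate 1 against 2.89 and 2.76. In SW480 ERβ it was replicate 1 that was lower, at 4.02 against 6.86 and 6.1.

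Most paired loci had p65 signal close to that of the inputs. Their median signal was 0.3 to 0.357 in the 12 ChIP libraries and 0.3 to 0.34 in the 4 inputs, and 236 of the 7259 loci (3.25%) were at 0 in all 16 tracks. A locus was called occupied in a library when its signal was at least 2, at least 4 times the input and at least 4 times the surrounding 10 kb, and in a condition when this held in 2 of 3 libraries. By this rule 251 paired loci (3.46%) were occupied in at least 1 condition and 7008 in none.

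Although few paired loci were occupied, they were occupied far more often than loci with a single motif. In HT29 mock cells 129 of 7259 were occupied (1.78%, exact 95% interval 1.49 to 2.11), against 0.269% of κB-only loci, 0.0293% of TRE-only loci and 0.163% of all distal motif loci. In HT29 ERβ cells there were 110 (1.52%, 1.25 to 1.82), against 0.185% and 0.0222% of the single-motif loci and 0.116% of all. In SW480 mock cells there were 79 (1.09%, 0.863 to 1.35), against 0.106% and 0.0182%, and 0.0719% of all. In SW480 ERβ cells there were 215 (2.96%, 2.58 to 3.38), against 0.533% and 0.0916%, and 0.334% of all. The ratio of the paired to the κB-only share was 6.61 in HT29 mock, 8.19 in HT29 ERβ, 10.2 in SW480 mock and 5.56 in SW480 ERβ. Within single libraries it ranged from 4.97 to 12.2, and the paired share was the higher one in 12 of 12. Among occupied loci the median signal was 4.47, 4.28, 4.56 and 4.6 for paired, 3.96, 3.81, 4.0 and 3.65 for κB-only and 3.84, 3.71, 3.95 and 3.23 for TRE-only loci, in the order HT29 mock, HT29 ERβ, SW480 mock, SW480 ERβ. These intervals treat loci as independent and cover counting error only.

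**Figure D1:**
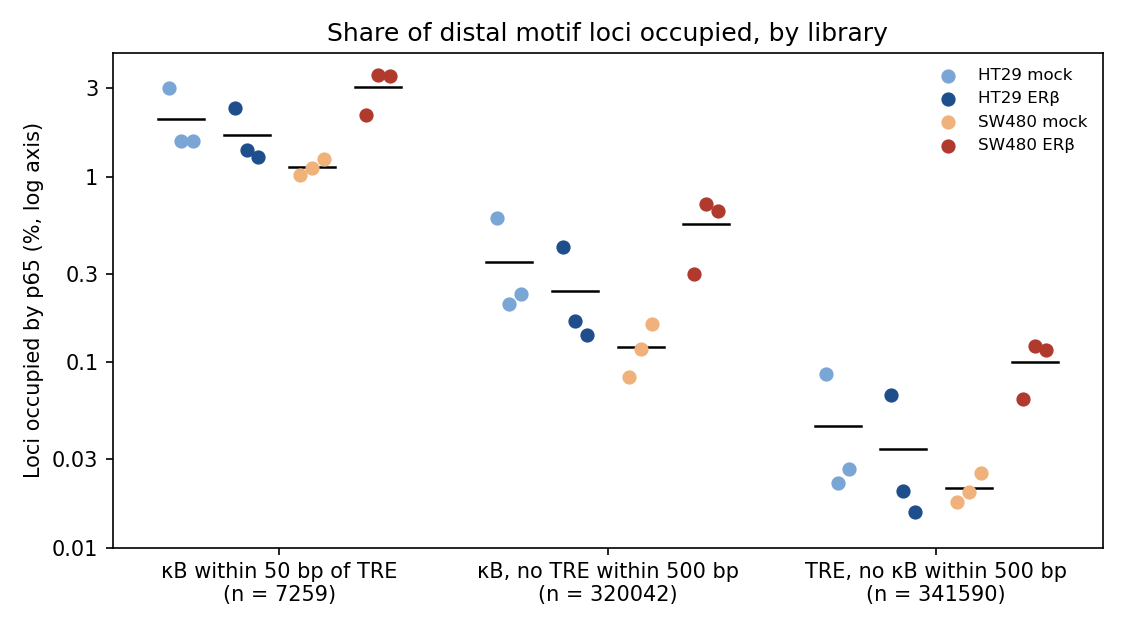
Percent of distal motif loci occupied by p65 (log axis) for paired, κB-only and TRE-only loci, with one point per ChIP library and a line at the mean of 3. In every condition the paired loci sit highest, between 1.02% and 3.55%, with κB-only loci between 0.0834% and 0.716% and TRE-only loci between 0.0155% and 0.122%.

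The higher share was also seen against κB-only loci of like sequence. Paired loci held 100 different κB words, counting both strands of a word together. When the κB-only loci were weighted to the κB words of the paired loci, their share over any condition went from 0.65% to 0.672%, against 3.46% for the paired loci, a ratio of 5.14. Weighting by κB word and GC content together gave 0.67% and a ratio of 5.16. Of the 95 words held by at least 20 paired loci, 58 had a higher occupied share when paired than alone, 31 a lower one and 6 an equal one. All 31 words with the lower share had no occupied paired locus. Both weightings were chosen after the data had been seen.

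The occupied share differed widely between κB words. The words named next were picked after their values had been seen. GGGAATTCCC was occupied at 28 of 89 paired loci (31.5%) and at 3.7% of κB-only loci, GGAATTTCCC at 17 of 81 (21%) and 4.17%, and GGAAATTCCC at 12 of 84 (14.3%) and 4.44%. Of the 89 loci with GGGAATTCCC, 37 belonged to a group of 57 near-identical loci described below, and these held 17 of the 28 occupied. GGAAAGTCCC, which reads GGGACTTTCC on the other strand, was occupied at 21 of 122 paired loci (17.2%) and at 3.74% of κB-only loci. At the other end GGAGGATCCC was occupied at 0 of 277 paired and 0.0104% of κB-only loci, GGAATCCTCC at 0 of 175 and 0.0233%, and GGAGAATCCC at 1 of 168 and 0.0361%. Copies weigh here too. These were the commonest words of recurring groups of 144 loci (GGAGGATCCC), 61 (GGAATCCTCC), and 113 and 97 (GGAGAATCCC), none with an occupied locus.

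The occupied share was highest at short gaps between the motifs and lowest where no TRE was near, though it did not fall at every step. With windows centred on the κB motif, so that all distances could be read alike, SW480 ERβ cells had 3.93% occupied at a gap of 0 to 10 bp (exact 95% interval 3.12 to 4.88), 3.79% at 11 to 20 bp, 2.5% at 21 to 30 bp, 1.69% at 31 to 40 bp and 2.45% at 41 to 50 bp. Further out the share was 1.52% at 51 to 100 bp, 1.03% at 101 to 200 bp, 0.777% at 201 to 500 bp (0.684 to 0.88) and 0.533% beyond. HT29 mock cells went from 2.72% at 0 to 10 bp to 1.05% at 41 to 50 bp and 0.392% at 201 to 500 bp, HT29 ERβ cells from 2.52% to 0.788% and 0.249%, and SW480 mock cells from 1.61% to 0.963% and 0.155%. From 31 to 40 bp to 41 to 50 bp the share was higher in 3 of the 4 conditions, going from 0.565% to 0.788% in HT29 ERβ and from 0.353% to 0.963% in SW480 mock, with overlapping intervals. The share at 51 to 100 bp was still above that beyond 500 bp in all 4 conditions, with intervals that did not overlap.

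**Figure D2:**
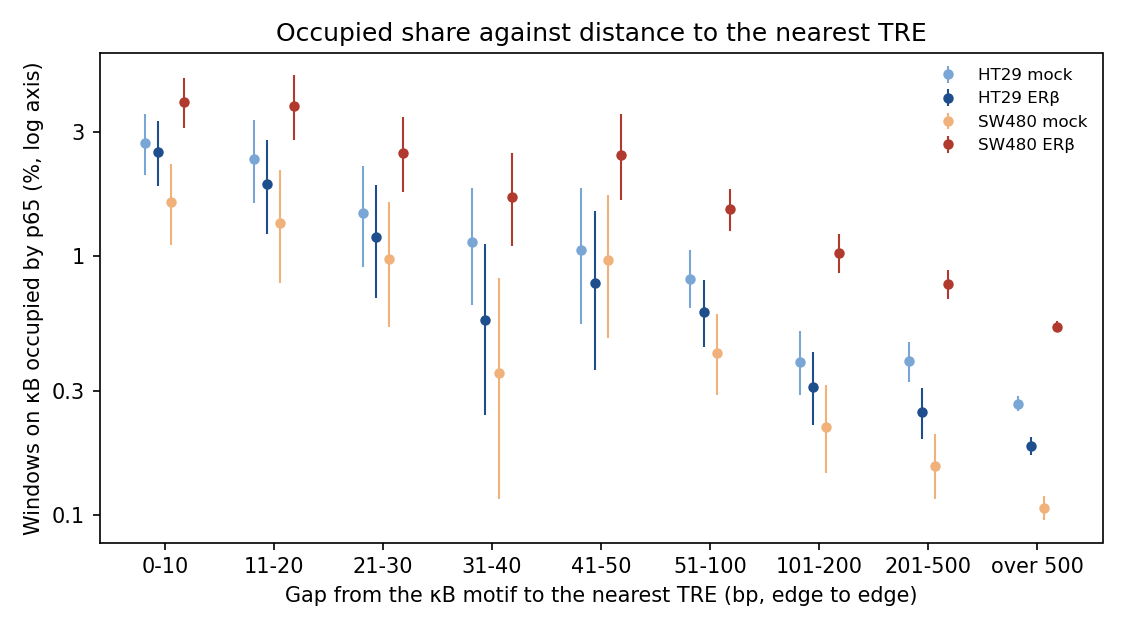
Percent of windows centred on a κB motif that were occupied (log axis) against the gap to the nearest TRE in bp, with points for each condition and bars for exact 95% intervals. The share goes, not evenly, from 1.61% to 3.93% at gaps of 0 to 10 bp to 0.106% to 0.533% where no TRE lies within 500 bp.

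The shares for both strands of the κB motif relative to the TRE had overlapping intervals, and the share was higher where the consensus matched on both strands. With each pair turned so that the TRE lay to the right, the consensus matched on the forward strand only at 2646 loci, of which 2.31% were occupied in at least 1 condition, and on the reverse strand only at 2386, of which 2.35% were (1.77 to 2.95 and 1.78 to 3.04). Where it matched on both strands, which needs A or T at the fifth base and holds words that are no palindromes too, 134 of 2227 loci were occupied (6.02%, exact 95% interval 5.07 to 7.09). The middle base of the TRE, read in the same orientation, gave 3.72% for C and 3.21% for G, with overlapping intervals. The count of second κB matches was added after the data had been seen. A second κB match elsewhere in the 200 bp went with 23 of 230 occupied (10.0%) against 3.24% without one, and among κB-only loci with 3.19% against 0.587%.

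Base composition and other motifs also went with the share. It rose from 1.26% of paired loci with a GC content of up to 40% to 2.53%, 5.27% and 7.76% in the bins over 40 to 50%, over 50 to 60% and over 60%, and from 0.194% to 1.72% among κB-only loci. The RUNX consensus (TGTGGTC or TGTGGTT, either strand) lay in 5.85% of paired and 6.07% of κB-only windows. With it 27 of 425 paired loci were occupied (6.35%, 4.23 to 9.11) and without it 3.28% (2.87 to 3.73), and the κB-only shares were 1.22% and 0.613%. Matches were allowed to overlap the κB motif or the TRE, and a match says nothing of whether the factor was there. The FOXA consensus (TGTTTAC, either strand) lay in 1.91% of paired windows, of which 2 of 139 were occupied (1.44%, 0.175 to 5.1) against 3.5% of the others, with overlapping intervals (3.08 to 3.95 for the others). Among κB-only loci the share was the higher one with it, at 1.77% against 0.626% without. Introns held 54.8% of all paired loci and 55.4% of the occupied ones, intergenic sequence 39.6% and 35.5%, and exons 5.59% and 9.16%. The median distance to the nearest TSS was 37415 bp for all paired loci and 22501 bp for the occupied ones, and 82 occupied loci lay over 50 kb from any.

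At occupied loci the signal peaked over the κB side of the pair. Averaged with the κB motif on the left, the profile reached 6.47 just left of the midpoint in HT29 mock, 5.62 in HT29 ERβ, 7.14 in SW480 mock and 6.88 in SW480 ERβ, against 0.46 in the HT29 mock input at the same loci. At loci occupied in no condition the mean was 0.386 at that place in HT29 mock and 0.432 in SW480 ERβ cells. The summit of the mean of 12 libraries, taken within 150 bp, lay closer to the κB motif at 170 of 251 occupied loci, closer to the TRE at 75, and midway at 6. Its median distance was 16.8 bp from the κB centre and 30.2 bp from the TRE centre. At the 66 loci with gaps of 30 to 50 bp, where both motifs are told apart best, 52 summits lay closer to the κB motif and 11 closer to the TRE, with median distances of 16.8 and 42.5 bp. The tracks extend each tag to 100 bp, which limits how finely a summit can be placed.

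**Figure D3:**
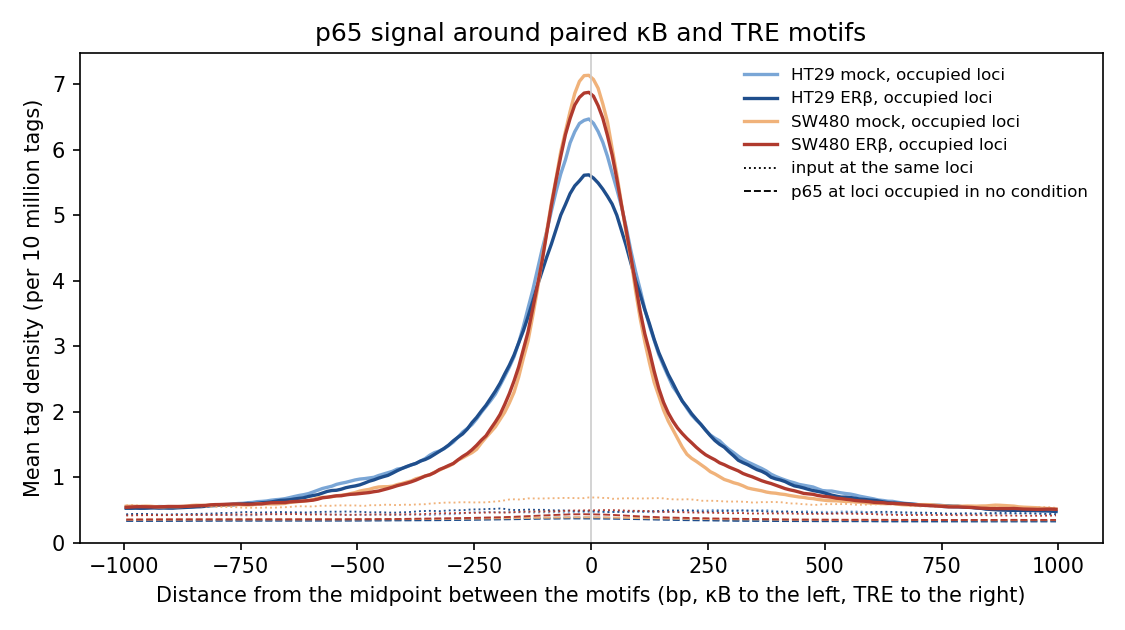
Mean tag density (tags per base, scaled) against distance in bp from the midpoint of the pair, turned so that the κB motif lies to the left, at loci occupied in each condition (solid), in the input at the same loci (dotted) and at loci occupied in no condition (dashed). The solid lines peak at 5.62 to 7.14 slightly left of 0 and fall to 0.475 to 0.555 at the outer ends, where the inputs lie at 0.414 to 0.566.

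Some of the occupied loci shared recurring sequence. Joining loci whose 60 bases around the TRE were at least 80% identical, a grouping made after the data had been seen, gave 21 groups of at least 10 loci, with 1198 loci in all, and 44 of these were occupied. The largest number came from a group of 57 loci, of which 27 were occupied (47.4%), among them 22 in each HT29 condition, 10 in SW480 mock and 23 in SW480 ERβ cells. Its commonest core, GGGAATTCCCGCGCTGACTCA, has a gap of 4 bp and stood at 19 loci, of which 8 were occupied, SMIM41, KRTAP5-11 and DIRAS2 among them. The second was a group of 26 with 9 occupied (34.6%), built on the core GGGACTTTCCCCTAAGCCAAAATGAGTCA with a gap of 12 bp, seen at CDH18, CFAP91 and CELF4.

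Within the first group the signal varied widely. The group's median signal was 2.36, 1.13 and 1.47 for HT29 mock against 0.603, 0.634 and 0.872 for SW480 mock libraries. At SYK, a kinase of immune receptor signalling, the HT29 mock libraries had 15.5, 8.21 and 7.08 and the SW480 mock libraries 6.43, 6.48 and 6.56. Near ALDH3B2, an aldehyde dehydrogenase gene with its start 46.3 kb away, it was 13.4, 8.58 and 9.55 in HT29 mock but 1.46, 1.73 and 4.04 in SW480 mock libraries, a difference of -1.81 ± 0.34 (SE, log2, adjusted p = 0.00016 by limma). Of the 34 tested loci of the group 9 were called higher with ERβ in SW480 (26.5%, against 28.0% of all tested loci), 17 differed between the mock lines (50% against 47.3%), and 0 differed in HT29, as over all tested loci (0.0%). Of the 57 loci, 8 were at 0 in all 16 tracks. Only unique alignments were kept, so a copy that shares its sequence with another can lose tags, and a 0 here is not evidence that p65 was absent.

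The other recurring groups held 8 occupied loci between them. A group of 12 loci with the κB word GGGAATTCCC and mostly a gap of 29 bp had 3 occupied (25%), all 3 in SW480 ERβ cells, with 1 of them in each HT29 condition and 0 in SW480 mock, and a group of 15 with the same word and mostly a gap of 44 bp had 1 (6.67%). A group of 78 with GGAAACTTCC had 1 (1.28%). A group of 250 loci with the κB word GGGAACTCCC and the same gap of 4 bp had 3 occupied loci (1.2%), all 3 in SW480 ERβ cells only. A group of 143 loci with GGAGGTCCCC and a gap of 5 bp had none, and 15 of the 21 groups, with 760 loci, had none. Outside all 21 groups 207 of 6061 loci were occupied (3.42%), and the shares by condition were 1.63%, 1.3%, 1.04% and 2.9%, in the order HT29 mock, HT29 ERβ, SW480 mock, SW480 ERβ. Outside the groups the share occupied in at least 1 condition was 4.31% at 0 to 10 bp, 2.47% at 31 to 40 bp and 2.89% at 41 to 50 bp, and the first and last intervals overlapped (3.29 to 5.53 and 1.99 to 4.06).

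Of the 15 paired loci with the highest mean over the 12 ChIP libraries, 12 were occupied in all 4 conditions. Near BCAR1, the gene of the focal adhesion adaptor p130Cas (chr16:75245229-75245428, intron), the signal was 12.6, 7.24 and 6.36 in HT29 mock, 11.3, 4.37 and 6.39 in HT29 ERβ, 16.7, 18.3 and 18.3 in SW480 mock and 19.6, 34.96 and 27.3 in SW480 ERβ libraries. The 2 mock groups did not overlap, and SW480 mock was higher by 1.0 ± 0.3 (SE) on the log2 scale of signal + 1 (adjusted p = 0.008), with inputs of 2.16 in SW480 and 0.922 in HT29 mock. Near CRTAC1, which encodes an extracellular matrix protein (chr10:97882630-97882829, intron), the signal was 16.7, 9.76 and 8.86 in HT29 mock, 14.6, 9.58 and 8.77 in HT29 ERβ, 19.96, 17.2 and 12 in SW480 mock and 18.1, 25.1 and 22.5 in SW480 ERβ libraries. No comparison passed the threshold there.

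QPCT encodes glutaminyl cyclase, which modifies the ends of several chemokines. At its locus (chr2:37390543-37390742, intergenic) the signal was 21.1, 11.2 and 13.1 in HT29 mock, 16.2, 9.22 and 8.17 in HT29 ERβ, 10.8, 13.99 and 13.6 in SW480 mock and 10.9, 22.7 and 18.5 in SW480 ERβ libraries, so the 4 groups overlapped. LAMC1 encodes the laminin γ1 chain. At its locus (chr1:183139675-183139874, intron) the signal was 23.9, 13.5 and 10.6 in HT29 mock, 22.5, 10.4 and 10.2 in HT29 ERβ, 8.19, 12.3 and 8.74 in SW480 mock and 5.19, 17.5 and 14.6 in SW480 ERβ libraries. IRAK2 encodes a kinase of interleukin-1 and Toll-like receptor signalling. Its locus (chr3:10192171-10192370, intron) had 15.5, 7.48 and 8.78 in HT29 mock, 11.9, 4.96 and 5.68 in HT29 ERβ, 15.6, 15.03 and 12.96 in SW480 mock and 10.9, 22.1 and 15.2 in SW480 ERβ libraries. Neither locus passed the threshold in any of the 4 comparisons.

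STK11, the gene of the kinase LKB1, and ARFRP1, the gene of a Golgi GTPase, were, with the ST3GAL1 locus described next, the 3 of these 15 called higher with ERβ in SW480. At the STK11 locus (chr19:1183941-1184140, intron) the signal was 9.89, 9.52 and 10.8 in SW480 mock and 13.7, 26.7 and 21.4 in SW480 ERβ libraries (difference 0.92 ± 0.31, adjusted p = 0.035), against 14.5, 5.98 and 7.85 in HT29 mock and 11.4, 5.23 and 4.04 in HT29 ERβ libraries. At the ARFRP1 locus (chr20:63699165-63699364, exon) it was 12.5, 11.5 and 10.7 in SW480 mock and 17.6, 23.4 and 26.6 in SW480 ERβ libraries (0.89 ± 0.3, adjusted p = 0.033). The SW480 groups did not overlap at either locus. RASSF10, a member of the Ras association domain family, had 6.51, 3.96 and 6.13 in HT29 mock against 16.5, 16.02 and 12.9 in SW480 mock libraries (1.32 ± 0.31, adjusted p = 0.0012), with inputs of 0.541 and 1.42. The remaining loci were SMIM41, KRTAP5-11, ITGAM and BAHCC1, which did not pass in any comparison, and CEBPB, whose locus had inputs of 0.934 to 1.62 and was occupied in both SW480 conditions and neither HT29 one; CEBPB passed in no comparison either.

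The remaining 2 of the 15 lie on chromosome 8. The locus with the highest mean of all has MYC as its nearest gene, 296 kb away (chr8:128035208-128035407), and had 20.5, 12.7 and 10.8 in HT29 mock, 14.7, 7.61 and 6.93 in HT29 ERβ, 24.1, 28.5 and 31.6 in SW480 mock and 18.7, 41.2 and 30.9 in SW480 ERβ libraries. Its inputs were also the highest of these loci, at 2.31, 2.1, 5.86 and 3.99 in the same order. SW480 mock exceeded HT29 mock there by 0.93 ± 0.26 (adjusted p = 0.0054), and as a ratio to input the difference was -0.12. The locus nearest ST3GAL1, the gene of a sialyltransferase (chr8:133642769-133642968), had 28.4, 17.03 and 19.05 in HT29 mock and 24.04, 13.9 and 16.6 in HT29 ERβ libraries, but 0.23, 0.61 and 0.792 in SW480 mock libraries. In SW480 ERβ libraries it had 0.67, 2.2 and 2.11, a difference from SW480 mock of 0.74 ± 0.26 (adjusted p = 0.04). The SW480 groups overlapped there, with 0.67 in ERβ replicate 1 below 0.792 in mock replicate 3, and all these values were low. Its input was 1.65 for HT29 mock and 0.27 for SW480 mock.

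**Figure D4:**
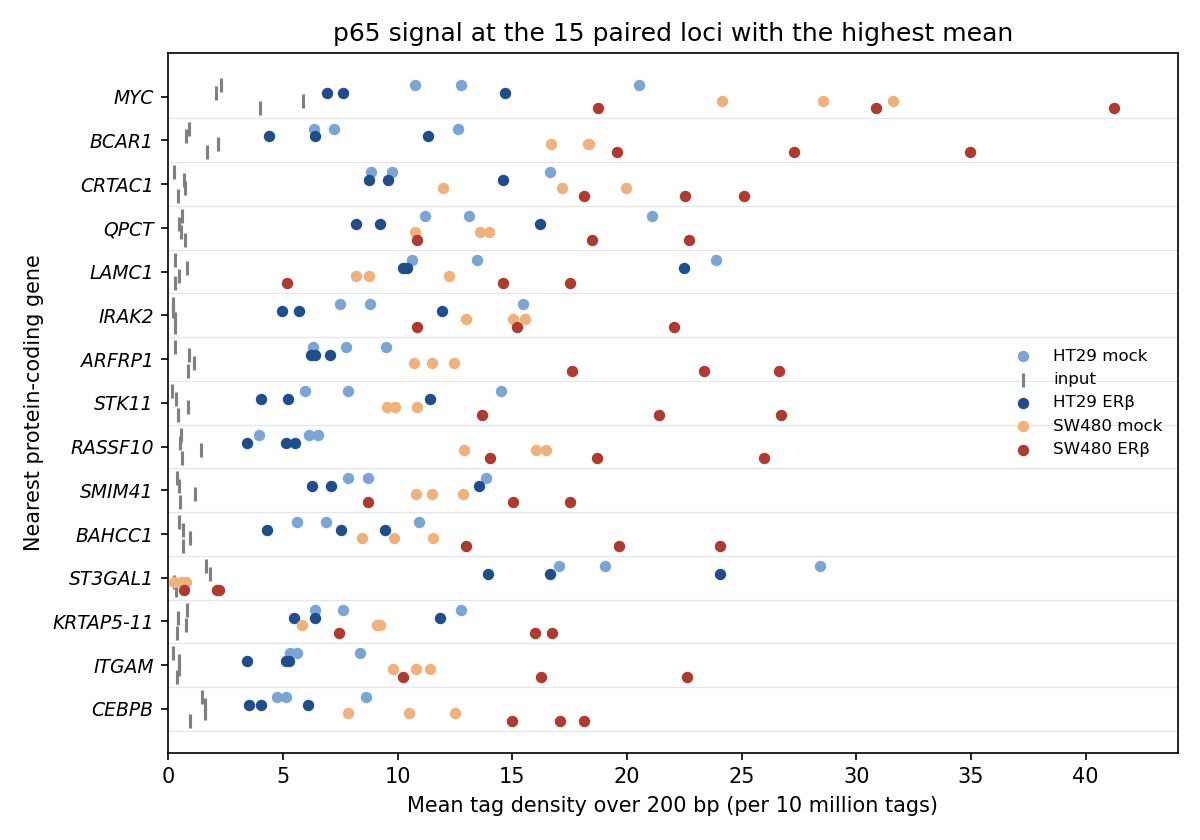
Signal (mean tag density over 200 bp, scaled by the authors) at the 15 paired loci with the highest mean over 12 ChIP libraries, one point per library, coloured by condition, with grey ticks for inputs. SW480 ERβ points reach 41.2 at the top locus, while at ST3GAL1 the SW480 mock points stay at 0.23 to 0.792 and the HT29 mock points at 17.03 to 28.4.

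The conditions shared only part of their occupied loci. Of the 251, 50 were occupied in all 4 conditions (19.9%), against 9.04% of the 2689 distal motif loci of any kind occupied in any condition. The largest set was the 91 loci occupied in SW480 ERβ alone (36.3%, against 49.2% of the 2689). There were 35 in all but SW480 mock (13.9% against 8.63%), 20 in both SW480 conditions alone (7.97% against 6.32%), 15 in both HT29 conditions alone (5.98% against 7.36%), 13 in HT29 mock alone (5.18% against 7.36%) and 7 in HT29 ERβ alone (2.79% against 2.05%). The limit of 4 times the input was set by the single input of each condition, so it was not the same in mock and ERβ cells. How far this shaped the sharing was not tested. In SW480, 78 of the 79 mock loci were also occupied with ERβ (98.7%, against 99% of all distal motif loci occupied in mock), and 137 of the 215 ERβ loci were not occupied in mock (63.7% against 78.7%). In HT29, 100 of the 129 mock loci were also occupied with ERβ (77.5% against 61.9%), and 10 of the 110 ERβ loci were not occupied in mock (9.09% against 13.4%). Per library the counts were 74, 81 and 91 in SW480 mock and 157, 258 and 254 in SW480 ERβ, which did not overlap (82.0 ± 8.54 against 223 ± 57.2, SD, n = 3, exact permutation test, two-sided, p = 0.1, the smallest that 3 against 3 allows). In HT29 they were 218, 114 and 113 in mock and 171, 101 and 93 with ERβ (148 ± 60.3 against 122 ± 42.9, n = 3, exact permutation p = 0.5). The count was lower with ERβ in 3 of 3 same-numbered pairs in HT29 and higher in 3 of 3 in SW480 (exact permutation within pairs, two-sided, p = 0.25 in both, the smallest that 3 pairs allow).

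In proportion, the occupied share of κB-only loci was further above mock in SW480 ERβ cells than that of paired loci. The ratio of the paired to the κB-only share was 12.2, 9.47 and 7.84 in the SW480 mock libraries and 7.26, 4.97 and 5.36 in the SW480 ERβ libraries, without overlap (9.84 ± 2.2 against 5.86 ± 1.23, n = 3, exact permutation p = 0.1, the smallest possible). In HT29 the ratios were 5.01, 7.59 and 6.68 in mock and 5.64, 8.4 and 9.17 with ERβ, which overlapped (exact permutation p = 0.4, n = 3). Within same-numbered pairs the ratio was higher with ERβ in 3 of 3 in HT29 and lower in 3 of 3 in SW480 (exact permutation p = 0.25 in both, the smallest possible). Over the 12 libraries the ratio was lowest where the most loci were occupied, as in SW480 ERβ replicate 2 with 258 and 4.97 and HT29 mock replicate 1 with 218 and 5.01.

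Locus by locus, limma was fitted to log2(signal + 1) of all 6168 distal motif loci with a mean signal of at least 1, of which 392 were paired, and members called passed an adjusted p of 0.05 over all 6168. The other paired loci were not tested, and since the filter uses all 12 libraries, a locus can pass it through 1 condition alone. Of the 392, 246 were occupied in at least 1 condition, and 5 occupied loci fell under the filter. In SW480, 151 of the 392 paired loci (38.5%; 32.1% of κB-only and 14.3% of TRE-only loci) were higher with ERβ and 0 were lower, where of all tested loci 28.0% were higher and 0.0162% lower. The differences of the 151 ran from 0.45 to 1.76, with a median of 0.92. Over all 392 the median difference was 0.59, against 0.48 at κB-only and 0.24 at TRE-only loci, and 369 of 392 were above 0. With each library centred on the median of the tested loci, which took the median difference of all tested loci from 0.43 to -0.04, 42 paired loci were higher and 13 lower (10.7% and 3.32%, against 9.79% and 8.51% of all tested loci) and the paired median was 0.11. The count was 280 without SW480 ERβ replicate 1 (71.4%, against 53.6% of all tested loci). It was 65 and 56 without SW480 ERβ replicates 2 and 3, and 60, 65 and 84 without SW480 mock replicates 1, 2 and 3, which are 14.3% to 21.4% of paired loci against 12.8% to 19% of all. With the replicate block it was 211 (53.8% against 40.2%). Of loci with a mean of at least 2 it was 81 of 177 (45.8%), against 590 of 1259 κB-only loci and 42.2% of all. The median difference was then 0.7 at paired and 0.71 at κB-only loci, so the paired loci did not stand above the κB-only ones. Without the filter limma called 0 of 7016 paired and 0 of all 646867 loci in this comparison, where 694 paired loci and 35595 of all had an unadjusted p under 0.05.

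Among the largest differences in SW480 were those at loci not called occupied in the other 3 conditions. At SPOPL, the gene of a ubiquitin ligase adaptor (chr2:138615364-138615563, intron), the signal was 0.51, 1.85 and 0.404 in SW480 mock and 4.48, 6.27 and 4.84 with ERβ (1.76 ± 0.29, adjusted p = 0.00058), and 0.28 to 1.53 in the HT29 libraries. At GPR55, the gene of a lipid-sensing G protein-coupled receptor (chr2:230974276-230974475, intergenic), it was 1.39, 1.19 and 2.75 in SW480 mock and 4.74, 9.85 and 8.99 with ERβ (1.66 ± 0.3, adjusted p = 0.0012), and 0.454 to 0.94 in the HT29 libraries. At both loci the ERβ and mock values of SW480 did not overlap. The mean at SPOPL was 0.87, 0.809 and 0.922 in HT29 mock, HT29 ERβ and SW480 mock, so it passed the filter through the SW480 ERβ libraries. Without the filter the adjusted p was 0.16 at SPOPL and 0.27 at GPR55.

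In HT29 limma called 0 of 392 paired loci and 0 of all 6168 (0.0%) between ERβ and mock. At an unadjusted p under 0.05 there were 11 paired loci and 152 of all. With the replicate block limma called 0 paired loci and 3 of all, all 3 lower with ERβ, and at an unadjusted p under 0.05 there were 72 paired loci and 835 of all. The median difference was -0.17 at paired loci, -0.13 at κB-only and -0.07 at TRE-only loci, with 93 of 392 above 0. This median depended on single libraries. Without HT29 mock replicates 1, 2 and 3 it was 0.0, -0.28 and -0.24, with 202, 53 and 74 of the 392 above 0, and without HT29 ERβ replicates 1, 2 and 3 it was -0.31, -0.08 and -0.08, with 52, 142 and 126 above 0. With centred libraries it was -0.05, with 160 above 0. On the ratio to input, 5 paired loci were lower with ERβ (1.28%), against 2.76% of all tested loci lower and 0.567% higher.

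**Figure D5:**
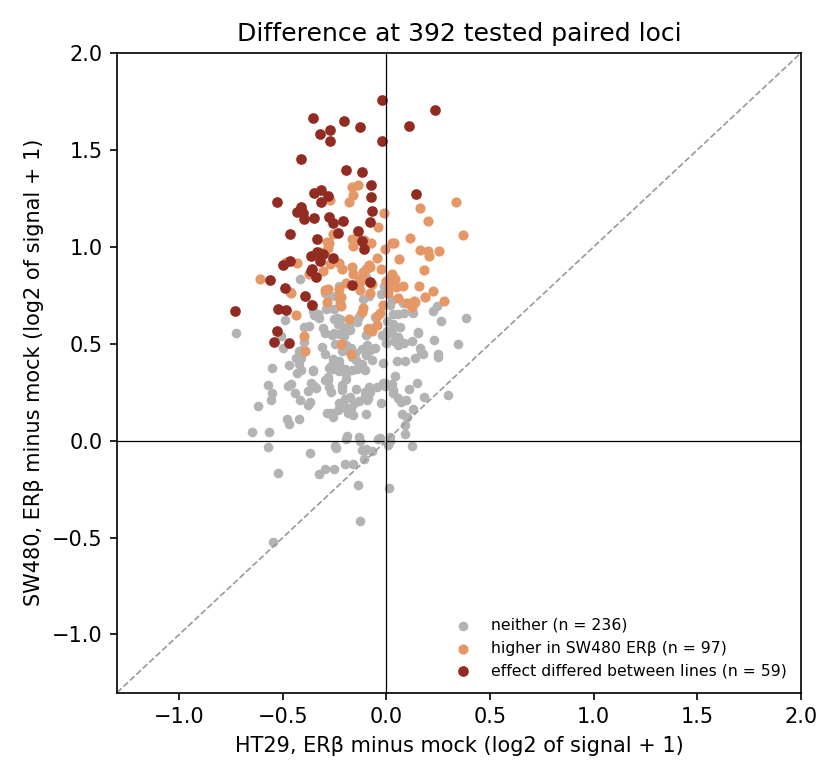
Difference between ERβ and mock (log2 of signal + 1) at the 392 tested paired loci, HT29 on the x axis and SW480 on the y axis, coloured by whether the SW480 difference or the difference between the lines passed the threshold; the dashed line marks equal effects. Most points lie above 0 on the y axis (369 of 392) and below 0 on the x axis (299 of 392).

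The effect of ERβ, its difference from mock, differed between the lines at 59 paired loci (15.1%, against 14.7% of κB-only and 4.69% of TRE-only loci). At all 59 it was higher in SW480 with its sign counted, where of all tested loci 12.2% were higher there and 0.0162% lower. In HT29 the difference from mock was below 0 at 56 of the 59, where it was not above 0 at 299 of all 392 tested paired loci. The interaction test subtracts the HT29 difference, so it favours loci at which that is negative. In HT29 itself no paired locus was called, so the 56 do not show an opposite effect there. The median difference of the effects was 0.74 at paired, 0.65 at κB-only and 0.32 at TRE-only loci. With the replicate block, which pairs same-numbered mock and ERβ libraries of a line, the count was 203 (51.8%, against 40.5% of all tested loci). Centring the libraries took the median over all tested loci from 0.57 to -0.02. The count was then 11, all higher in SW480 (2.81%), where of all tested loci 2.77% were higher and 1.33% lower. It was 34 without HT29 mock replicate 1, 126, 24 and 26 without HT29 ERβ replicates 1, 2 and 3, 27 and 28 without SW480 mock replicates 1 and 2, and 148, 24 and 28 without SW480 ERβ replicates 1, 2 and 3. On the ratio to input it was 142 (36.2%, against 37.6% of all tested loci), and of the loci with a mean of at least 2 it was 32 of 177 (18.1% against 20.4%), so in both the paired share was the lower one. The shares without single libraries moved with those of all tested loci, as with 37.8% against 30.4% without SW480 ERβ replicate 1, and 6.12% against 5.35% without HT29 ERβ replicate 2. Besides GPR55 (2.02 ± 0.4, adjusted p = 0.0036), the largest were at CHST2, a sulfotransferase gene (chr3:143307781-143307980), with 1.9 ± 0.34 (adjusted p = 0.0016), and at DLG1, the gene of a polarity scaffold protein (chr3:197337735-197337934), with 1.88 ± 0.3 (adjusted p = 0.00074). At CHST2 the signal was 0.645, 0.659 and 0.831 in SW480 mock and 4.21, 3.93 and 4.21 with ERβ, and 0.483 to 1.91 in HT29. At DLG1 it was 0.86, 0.66 and 0.25 in SW480 mock and 3.82, 3.65 and 3.84 with ERβ, and 0.396 to 1.09 in HT29. The mean at DLG1 was under 1 in all conditions but SW480 ERβ. At CHST2 it was 1.325, 0.854 and 0.712 in HT29 mock, HT29 ERβ and SW480 mock. Both loci thus passed the filter through the SW480 ERβ libraries. Without the filter the adjusted p for the difference of the effects was 0.18 at GPR55, 0.087 at CHST2 and 0.019 at DLG1.

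Between the mock cells of the 2 lines 169 of 392 paired loci were called (43.1%), 48 higher in SW480 and 121 higher in HT29, where of all tested loci 17.3% were higher in SW480 and 29.9% in HT29. With centred libraries, which took the median over all tested loci from -0.17 to 0.03, the split was 95 and 110 (24.2% and 28.1%, against 29.5% and 27.1% of all tested loci). On the ratio to input it was 15 and 120 (3.83% and 30.6%, against 5.06% and 31% of all), and without HT29 mock replicate 1 it was 84 and 115 (21.4% and 29.3%, against 22.1% and 26.4%). The largest difference towards HT29 was at ST3GAL1, described above (-3.85 ± 0.33, adjusted p = 1.1e-08). Towards SW480 the largest were at HS6ST1, a heparan sulfate sulfotransferase gene (chr2:128520807-128521006, intergenic), with 0.696, 0.506 and 0.96 in HT29 and 8.21, 4.73 and 6.42 in SW480 libraries (2.1 ± 0.3, adjusted p = 6.9e-06, inputs 0.211 and 0.576), at HMX1, a homeobox gene (chr4:8846956-8847155, intron), with 1.19, 0.676 and 0.83 against 6.16, 8.48 and 5.25 (1.99 ± 0.3, adjusted p = 1.5e-05, inputs 0.18 and 0.367), and at ZBTB17, the gene of the MYC partner MIZ-1 (chr1:15985699-15985898, intergenic), with 4.88, 3.57 and 2.02 against 8.99, 14.1 and 10.3 (1.47 ± 0.34, adjusted p = 0.001, inputs 0.217 and 0.402). The 2 mock groups did not overlap at any of these loci.

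Paired loci were also counted near listed genes of NFκB, cytokines, AP-1 and receptors. The counts were not set against the number expected from the whole genome, so they do not show whether paired loci are rare or common there. Both the lists and the limit of 100 kb were chosen with earlier results known. Within 100 kb of 22 genes of NFκB feedback and subunits there were 12 paired loci, 2 of them occupied, near TNIP1 and TRAF2. Around 25 cytokine and chemokine genes there were 10, and around 13 genes of AP-1 subunits and partners 12, with 0 occupied in either list. Around 8 receptor genes, of which 7 encode receptors of the TNF family and the other is EGFR, there were 8, of which those near EGFR and TNFRSF10B were occupied. With 3.46% of all paired loci occupied, lists of this size hold too few loci for a share to be read. Loci under 1 kb from a TSS, where many sites of such genes lie, were not part of these regions.

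The listed loci differed in how the lines shared them. TNIP1 encodes a binding partner of A20 that restrains NFκB. Its locus (chr5:151083434-151083633, intron) was called occupied in HT29 mock alone. All HT29 ERβ and SW480 ERβ libraries there were above the signal minimum of 2 and above 4 times their inputs of 0.407 and 0.31. These conditions thus missed the call through the limit over the surrounding 10 kb, and the call does not mean that p65 signal was confined to HT29 mock. The locus had 11.6, 5.7 and 6.7 in HT29 mock against 1.91, 1.36 and 1.32 in SW480 mock (-1.78 ± 0.32, adjusted p = 0.00011), and rose to 4.34, 5.15 and 4.65 in SW480 ERβ libraries (1.18 ± 0.25, adjusted p = 0.0028). EGFR encodes the epidermal growth factor receptor. Its locus, 44.4 kb from the TSS (chr7:55065223-55065422), had 16.3, 9.3 and 8.43 in HT29 mock against 1.54, 1.48 and 2.1 in SW480 mock (-2.14 ± 0.33, adjusted p = 1.9e-05), and rose to 6.17, 8.24 and 6.36 in SW480 ERβ libraries (1.55 ± 0.26, adjusted p = 0.00062). At both loci these 3 groups did not overlap. HT29 ERβ libraries had 8.86, 2.79 and 6.03 at TNIP1 and 14.3, 8.0 and 5.99 at EGFR, which overlapped SW480 ERβ. The inputs at TNIP1 were 0.43 in HT29 and 0.71 in SW480 mock, and at EGFR 0.57 and 0.837. TRAF2 encodes an adaptor of TNF receptors, and its locus, 96654 bp away (chr9:136785158-136785357), had 3.45, 1.09 and 1.07 in HT29 mock and 3.11, 2.22 and 1.61 in HT29 ERβ libraries, against 0.56, 0.4 and 0.25 in SW480 mock and 1.09, 1.29 and 1.56 in SW480 ERβ libraries. It was called lower in SW480 than in HT29 mock (-0.94 ± 0.25, adjusted p = 0.0036) and higher with ERβ in SW480 (0.72 ± 0.19, adjusted p = 0.011), and was occupied in HT29 ERβ alone. Its nearest protein-coding start was that of TMEM141, 6.09 kb away. TNFRSF10B encodes a receptor of TRAIL, and its locus (chr8:23074740-23074939) had 5.38, 3.33 and 5.16 in HT29 mock, 5.42, 2.78 and 3.16 in HT29 ERβ, 7.2, 7.95 and 5.5 in SW480 mock and 6.94, 15.1 and 12.8 in SW480 ERβ libraries, with no comparison past the threshold.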

How the data were processed

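The authors aligned reads to hg38 with STAR, kept unique alignments, and with HOMER made tag directories and the deposited coverage tracks (tool versions are not given in the sources used here). The deposited values are signal, a tag density at each base that the authors had brought to a total of 1e+07 tags with fragments of 100 bp, leaving out stretches under 0.05. Low signal is given in coarse steps, and the scaled values do not give depth. The ERβ inputs came from another series of libraries.

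Motifs were matched in GRCh38 as exact words, with starts from GENCODE 44 and distances edge to edge. Each track was averaged over 200 bp (Python 3.11.15, numpy 2.4.6, pandas 2.3.3, scipy 1.17.1). limma 3.58.1 in R 4.3.3, with a trend and Benjamini-Hochberg adjustment, was fitted to log2(signal + 1) of the libraries compared, and was tested on simulated data. The fit had no replicate block, which was added as an alternative. The differences, standard errors and adjusted p printed for named loci are thus from the fit without pairing. For the block and the permutations within pairs, same-numbered mock and ERβ libraries of a line were taken as paired. Their deviations correlated by 0.22 to 0.57 in HT29 and 0.11 to 0.3 in SW480. In HT29, replicates 2 and 3 correlated as well across numbers (0.29 and 0.21), so the numbers set only replicate 1 apart there. The interaction test used all 12 ChIP libraries. Named loci were the 15 with the highest mean among those occupied, the 3 largest called differences in each direction of each comparison, and occupied loci near listed genes. Loci of recurring groups were named after their values were seen. The members, lists and named loci were chosen with earlier results of these data known. Some loci that this rule names, and the occupied locus of 1 list, are not reported here.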

Additional observations from a re-analysis of the deposited data

Results flagged for a closer look

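The difference in the ERβ effect between the lines passed the interaction test at 59 paired loci (15.1%, against 14.7% of κB-only and 12.2% of all tested loci). The largest values on the log2 scale were at GPR55 (2.02), CHST2 (1.90) and DLG1 (1.88). The count was 11 with centred libraries and 3 without the filter on low signal, where of these named loci only DLG1 stayed past the threshold. CHST2 and DLG1 passed that filter through the SW480 ERβ libraries. The loci were noted because the same contrast differed between SW480 and HT29. HT29 replicate 1 stood apart from the other HT29 libraries, and the counts without each library stand in the report. Groups of 3 libraries are too small for a test of single outlying libraries.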

How the results depend on the processing

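The paired share stayed 5.34 to 12.6 times the κB-only share under all alternatives. The 4 counts of occupied loci stayed within 1.5 times under all alternatives but these. With 8-fold over input the counts were 80 in HT29 mock, 55 in HT29 ERβ, 37 in SW480 mock and 143 in SW480 ERβ, and with a signal minimum of 3 there were 69 in HT29 ERβ. Leaving out 1 library gave 97 to 113, 81 to 99, 63 to 69 and 153 to 211 in the same order. Outside the recurring groups, an alternative chosen after seeing the data, the counts were 99, 79, 63 and 176.

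The count of paired loci called between ERβ and mock in SW480 by limma was 0 without a filter on low signal, where 646867 loci shared the adjustment and 694 of 7016 paired loci had an unadjusted p under 0.05. It was 81 of 177 with a mean of at least 2 (45.8%, against 42.2% of all tested loci) and 55 with centred libraries (14.0% against 18.3%). Leaving out 1 library gave 56 to 280 (14.3% to 71.4%). The count was 211 with the replicate block, which pairs same-numbered libraries. For HT29 it was 0 in all alternatives, the replicate block included, except 5 on the ratio to input. Between the mock lines it was 83 of 177 with a mean of at least 2 (46.9%, against 55.8% of all tested loci) and 136 to 199 leaving out 1 library. With the replicate block it was 155 (39.5% against 43.7%), although the numbers do not pair libraries across lines (correlations of -0.11 to -0.02). For the difference in the ERβ effect it was 3 without the filter, 32 with a mean of at least 2, 11 with centred libraries, 142 on the ratio to input, 203 with the replicate block and 24 to 148 leaving out 1 library. Why these counts moved was not tested, other than by the number of loci or libraries each setting holds. Of 249 alternatives of the 18 named differences, 217 kept direction and threshold, 31 kept direction only, and 1, the MYC locus between lines on the ratio to input, was opposite at -0.12.

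Depth limits what an empty locus shows: the tracks give no tag count, and no floor was set. The genome used carries no repeat marking, so a planned split by soft-masked sequence was not run.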
